A study of Homo sapiens with 9 samples.

Results

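The insulin-like growth factor genes described here are 10 genes of 26475 listed in each table: the ligand IGF2, the receptors IGF1R, INSR and IGF2R, the receptor adaptor IRS2, and the binding proteins IGFBP1, IGFBP2, IGFBP3, IGFBP4 and IGFBP6. They were chosen by name, as the rows that carry these symbols, and all 10 were found in all 9 libraries. PolyA RNA was sequenced from Hep3B cells, a human line derived from a liver cancer, after 6 h under hypoxia. The replicated set held 3 libraries given DMSO, the solvent control, and 3 given a compound labelled DHE. The dose set held 3 single libraries: DMSO, a high dose of DHE and a low dose of DHE, as their titles call them. Hypoxia was common to every group, controls included, so no value below compares hypoxia with normal oxygen, and no label states how much DHE was given. By its title the study is about protein citrullination and HIF-1A, a transcription factor subunit that low oxygen stabilises.

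IGF2 is a growth factor of the fetus, made in large amounts by fetal liver and by many liver tumours. It acts through IGF1R and an isoform of the insulin receptor, both tyrosine kinases that recruit adaptors such as IRS2 and so activate PI3K and AKT, whereas IGF2R binds the ligand and carries it to lysosomes. Binding proteins hold the ligand outside the cell. IGFBP1 is a liver product that insulin represses and that hypoxia and FOXO factors induce, IGFBP3 is the main carrier in blood, and IGFBP6 prefers IGF2 over IGF1.

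Libraries held 22167516 to 36267216 counts. A count of 0 allows up to 3 counts, or 0.0827 to 0.135 CPM (counts scaled to library size), and such limits cover counting error only. The first DHE replicate was the outlying library: the chi-square per gene was 30.2 and 35.8 against the other DHE replicates, 5.58 between those, and 9.07 to 15.6 among the DMSO replicates. Cell type markers were compared between DHE and DMSO in the replicated set (edgeR adjusted p under 0.05). There 26.2% of all 14492 tested genes were called, 13.4% higher and 12.8% lower. All 12 hepatocyte markers were tested, with 6 higher and 3 lower. They summed to 25699 to 28546 TPM (transcripts scaled for length and depth) in the DMSO replicates, 26570 to 33541 in the DHE replicates and 46018 to 58258 in the dose set. Of 10 leukocyte markers 3 could be tested, with 1 lower and 0 higher, and the list summed to 48.8 to 55.7 TPM with DMSO, 37.3 to 41.5 with DHE and 96.5 to 136 in the dose set, with MS4A1 at 0 throughout. Of 6 endothelial markers 1 could be tested and was lower, with sums of 0.84 to 1.06, 0.44 to 0.60 and 0.79 to 1.82 TPM, and KDR and ERG were at 0 in all libraries. Fibroblast and stellate markers, 7 in all with 4 tested, gave 1 higher and 0 lower, with sums of 25.6 to 28.9, 31.8 to 37.5 and 20.5 to 47.3 TPM, and DCN and ACTA2 at 0. The part of these markers in the results below was not tested. In bulk RNA, fewer cells of a kind and less RNA per cell cannot be told apart. The labels do not say whether replicates came from different cultures. The p-values therefore reflect only the spread between these libraries, which may be technical.

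The 250 bases before the start of IGFBP6 and IGF1R, whose transcripts changed, and of IGFBP3, whose groups did not overlap, are shown from the RefSeq table for GRCh38.p14, 5′ to 3′ on the gene's strand. Capitals mark matches on either strand to ACGTG or GCGTG, the core letters of hypoxia response elements, or to GTAAACA, the core letters of FOXO sites. They lie at chr12:53097417-53097666 (plus strand), chr15:98648289-98648538 (plus strand) and chr7:45921273-45921522 (minus strand).
IGFBP6: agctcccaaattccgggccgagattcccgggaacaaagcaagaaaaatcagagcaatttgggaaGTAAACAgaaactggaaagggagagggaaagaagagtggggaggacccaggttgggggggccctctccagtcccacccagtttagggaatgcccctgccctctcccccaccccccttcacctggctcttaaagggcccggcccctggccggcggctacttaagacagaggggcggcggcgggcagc
IGF1R: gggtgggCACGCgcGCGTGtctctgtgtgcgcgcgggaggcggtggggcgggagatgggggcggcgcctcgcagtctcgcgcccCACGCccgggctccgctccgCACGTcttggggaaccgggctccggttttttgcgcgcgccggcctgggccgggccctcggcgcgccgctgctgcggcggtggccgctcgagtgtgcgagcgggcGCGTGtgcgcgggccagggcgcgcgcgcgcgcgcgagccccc
IGFBP3: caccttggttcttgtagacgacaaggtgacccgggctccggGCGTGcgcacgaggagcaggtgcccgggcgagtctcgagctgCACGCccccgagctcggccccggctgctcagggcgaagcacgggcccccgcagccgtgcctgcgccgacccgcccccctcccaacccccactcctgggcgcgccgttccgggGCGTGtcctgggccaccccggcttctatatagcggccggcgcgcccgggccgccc
The IGFBP6 window held 1 match to GTAAACA and 0 to either hypoxia core. IGF1R held 1 match to ACGTG and 4 to GCGTG, and IGFBP3 held 3 to GCGTG. Among all 35116 windows of 250 bases in the table, 18.5% held ACGTG, 32.2% GCGTG and 2.98% GTAAACA. G and C made up 61.2%, 81.2% and 76.0% of the 3 windows printed. Of the 10 members 8 had a window, and IGF2 and IGFBP1 had none. That of IGF2R held 3 copies of CACGTG, a palindrome that counts as ACGTG on both strands, and those of INSR, IRS2 and IGFBP4 held none of the 3 motifs. IGFBP2 has 3 windows, of which 1 held GCGTG. These matches describe letters, not bound sites.

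Transcripts of the family ranged over more than 3 orders of magnitude per length in the DMSO replicates. IGF2 stood at 3225, 3836 and 3778 TPM there and took 0.934% to 1.03% of all counts. IGF2R followed at 233 ± 24.1 TPM (SD, n = 3), then IGFBP1 at 75.0 ± 3.51, IRS2 at 56.1 ± 4.03, IGFBP6 at 46.2 ± 1.23, INSR at 33.5 ± 2.45, IGFBP3 at 16.1 ± 1.58 and IGF1R at 7.84 ± 0.671 TPM. IGFBP4 at 2.87 ± 0.411 and IGFBP2 at 2.43 ± 0.681 TPM closed the order, and of the 9 neighbouring pairs only these 2 genes had ranges that overlapped. IGF2 was thus 15.5 times as abundant as its clearance receptor, the next gene in the order.

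**Figure D1:**
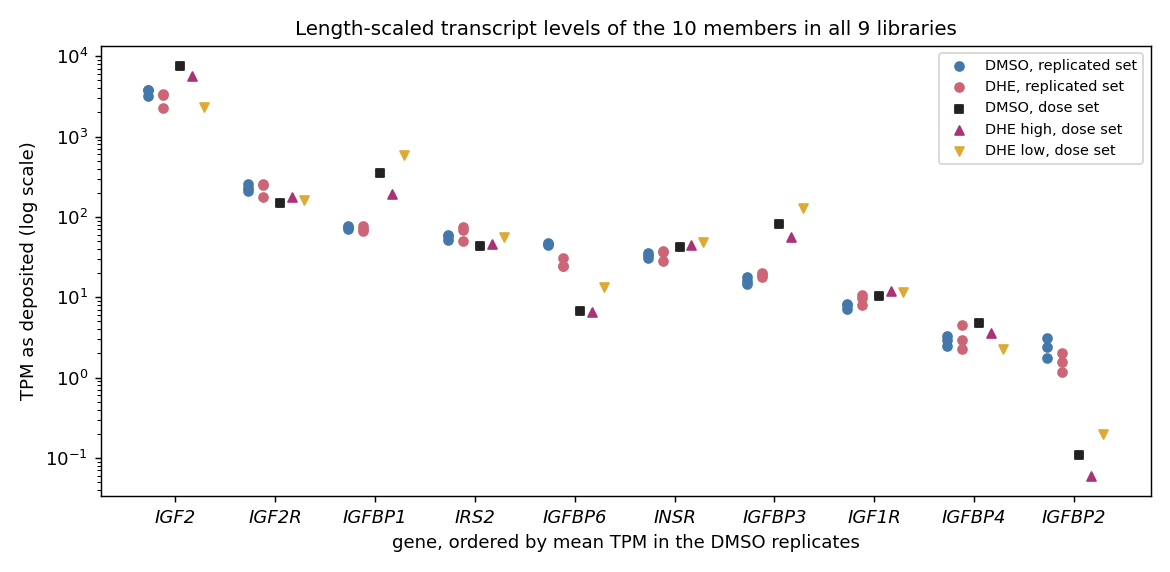
Deposited TPM of the 10 members (log axis, genes ordered by their mean in the DMSO replicates), with 1 point per library for the replicated set (circles) and the dose set (square, triangles). IGF2 lies above the other members in every library, and IGFBP1, IGFBP2, IGFBP3 and IGFBP6 differ most in level between the sets.

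With DHE in the replicated set IGF2 and IGFBP6 fell and IGF1R rose, while the other 7 members did not pass the quasi-likelihood test of edgeR (p adjusted by Benjamini-Hochberg over all genes). That is 3 of 10 members called, where 26.2% of all 14492 tested genes were called (13.4% higher, 12.8% lower), a share near the background. The median log2 fold change was -0.05 over the members and -0.0033 over all genes. Groups did not overlap for 4 of 10 members, IGF2, IGFBP6, IGF1R and IGFBP3, against 41.6% of all genes (20.8% with DHE above and 20.8% with DHE below).

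The ligand IGF2, on chromosome 11 from 2129117 to 2149566 in GRCh38, was measured at 9475, 10291 and 10059 CPM with DMSO and at 6991, 8358 and 8702 CPM with DHE. Every DHE library lay below every DMSO library, and DHE replicate 1 was the lowest. Mean IGF2 was 9942 ± 421 CPM with DMSO and 8017 ± 905 with DHE (SD, n = 3 per group), 1.24-fold lower. The log2 fold change was -0.31 ± 0.08 (SE, edgeR adjusted p = 0.00913). Without DHE replicate 1 the log2 fold change was -0.22 (edgeR adjusted p = 0.00177). On the deposited TPM the groups overlapped, since DMSO replicate 1 at 3225 lay below DHE replicates 2 and 3 at 3338 and 3381, and limma on log2(TPM + 1) did not call the gene (-0.28, adjusted p = 0.250).

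Neighbours of IGF2 on chromosome 11 were low by comparison. H19, an imprinted noncoding RNA gene 127850 bases away, fell 1.20-fold, with means of 40.9 ± 0.292 and 34.1 ± 1.27 CPM (SD, n = 3 per group, -0.26 ± 0.06, edgeR adjusted p = 0.00956), a call that limma on log2(TPM + 1) did not make (adjusted p = 0.251). INS-IGF2, a read-through gene that overlaps IGF2, had at most 23 counts in a library and was not tested. The antisense gene IGF2-AS did not pass (edgeR adjusted p = 0.895). Whether counting used strand was not stated, so reads of IGF2 and of this antisense gene may be mixed.

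IGF1R, the main signalling receptor for IGF2, on chromosome 15 from 98648539 to 98964530, was measured at 56.3, 60.1 and 58.1 CPM with DMSO and 66.3, 70.9 and 68.1 CPM with DHE. All DHE libraries were above all DMSO libraries. Means were 58.1 ± 1.89 and 68.4 ± 2.29 CPM (SD, n = 3 per group), a 1.18-fold rise (log2 0.24 ± 0.06, edgeR adjusted p = 0.00764). As TPM its groups overlapped, and limma on log2(TPM + 1) did not call it (0.24, adjusted p = 0.386).

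INSR, the insulin receptor gene, which shares the downstream pathway of IGF1R, differed by less than the spread between replicates. It stood at 180, 188 and 178 CPM with DMSO and 173, 183 and 185 CPM with DHE (log2 fold change -0.01 ± 0.05, edgeR adjusted p = 0.889), and this sign changed under 6 of 18 alternatives. IGF2R, the clearance receptor, stood at 1238, 1373 and 1214 CPM with DMSO and 1071, 1266 and 1260 CPM with DHE, with overlapping groups (-0.09 ± 0.07, edgeR adjusted p = 0.399). For both receptors the DMSO and DHE ranges overlapped.

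IRS2, an adaptor that links both receptors to PI3K, was measured at 229, 233 and 238 CPM with DMSO and 233, 282 and 269 CPM with DHE. DHE replicates 2 and 3 lay above all DMSO libraries and DHE replicate 1 among them. The log2 fold change of 0.16 ± 0.07 did not pass (edgeR adjusted p = 0.0829). Without DHE replicate 1 it was 0.24 and passed (edgeR adjusted p = 0.00116), as it did without both libraries numbered 1, an alternative added with the results in view (0.23, adjusted p = 0.00245). Over all of its alternatives the adjusted p ran from 0.00116 to 0.468.

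IGFBP6, on chromosome 12 from 53097667 to 53102340, showed the largest called change of the family. It stood at 19.3, 18.7 and 18.6 CPM with DMSO and at 10.8, 9.23 and 11.7 CPM with DHE. The groups were far apart relative to their spread, in TPM as well (45.1 to 47.5 against 24.2 to 30.9). Means were 18.9 ± 0.375 and 10.6 ± 1.26 CPM (SD, n = 3 per group), a 1.78-fold fall (log2 -0.83 ± 0.10, edgeR adjusted p = 1.07e-04), and with any 1 library left out the log2 fold change was -0.91 to -0.74.

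IGFBP3, on chromosome 7 from 45912245 to 45921272, was higher in every DHE library without passing the test. The values were 22.1, 22.4 and 24.6 CPM with DMSO and 28.8, 24.7 and 26.6 CPM with DHE (0.21 ± 0.09, edgeR adjusted p = 0.0890). Its neighbour IGFBP1, which ends 18584 bases before it, stood at 62.9, 61.2 and 63.7 CPM with DMSO and 61.4, 53.4 and 60.5 CPM with DHE. These groups overlapped (-0.10 ± 0.06, edgeR adjusted p = 0.275).

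The low members IGFBP2 and IGFBP4 were measured with wide errors. IGFBP2, a binding protein common in fetal tissue and tumours, had 44 to 75 counts per DMSO library and 26 to 42 per DHE library, and its log2 fold change of -0.61 ± 0.35 did not pass (edgeR adjusted p = 0.227). IGFBP4, an inhibitory binding protein, had 103 to 139 and 86 to 156 counts (0.13 ± 0.23, edgeR adjusted p = 0.715). A change of the size seen for IGF2 lies within 2 standard errors for either gene.

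**Figure D2:**
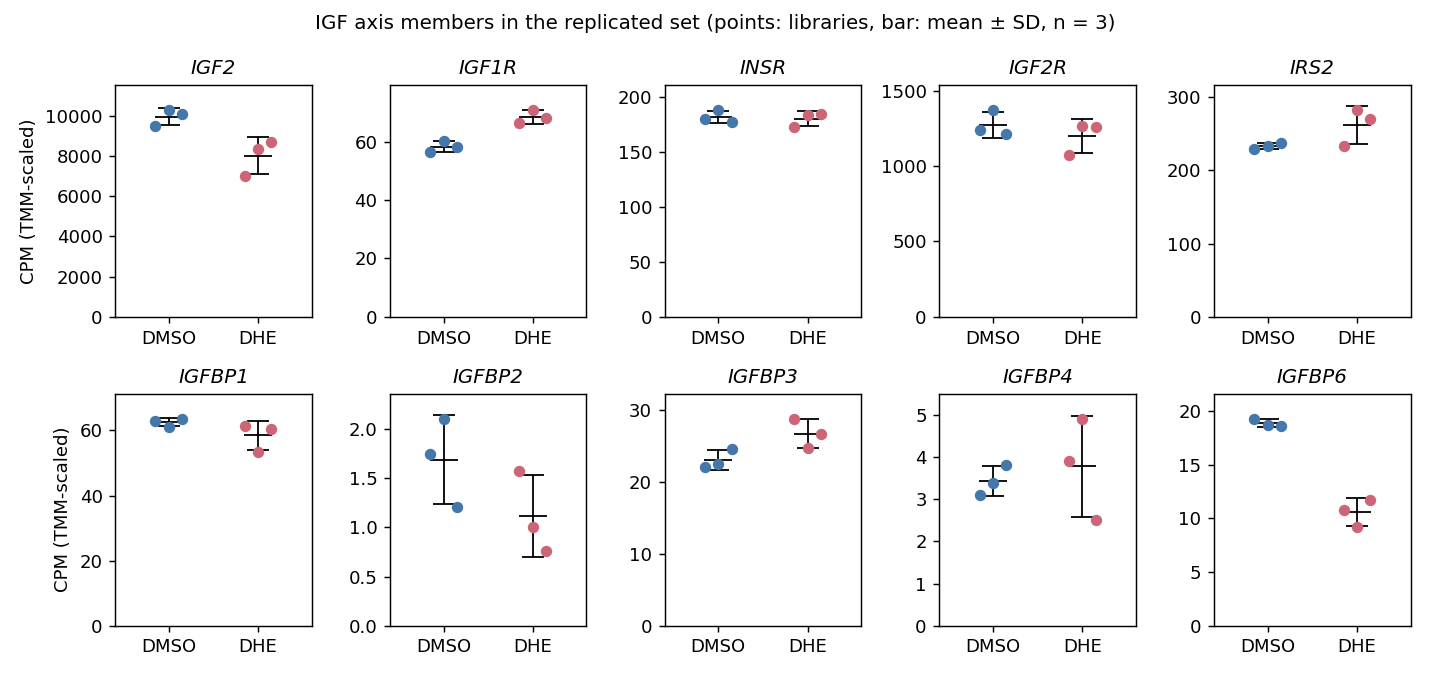
TMM-scaled CPM of each member in the replicated set (vertical axes start at 0), with 1 point per library and the mean ± SD of 3. IGFBP6 and IGF2 lie lower and IGF1R higher in all DHE libraries, and the groups of INSR, IGF2R, IRS2, IGFBP1, IGFBP2 and IGFBP4 overlap.

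The make-up of the binding protein transcripts shifted with these values. The 5 IGFBP members summed to 136, 146 and 147 TPM with DMSO and to 114, 119 and 132 TPM with DHE. IGFBP6 made up 31.3% to 33.3% of that sum with DMSO and 20.4% to 23.4% with DHE. IGFBP1 made up 52.1% to 53.2% and 58.4% to 59.0%, and IGFBP3 10.7% to 12.04% and 15.1% to 15.9%. None of these 3 ranges overlapped, although the TPM of IGFBP1 itself did, at 71.1 to 78.0 with DMSO and 66.4 to 77.9 with DHE. A share within a library rises when another gene falls, so these shares show unequal change only.

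**Figure D3:**
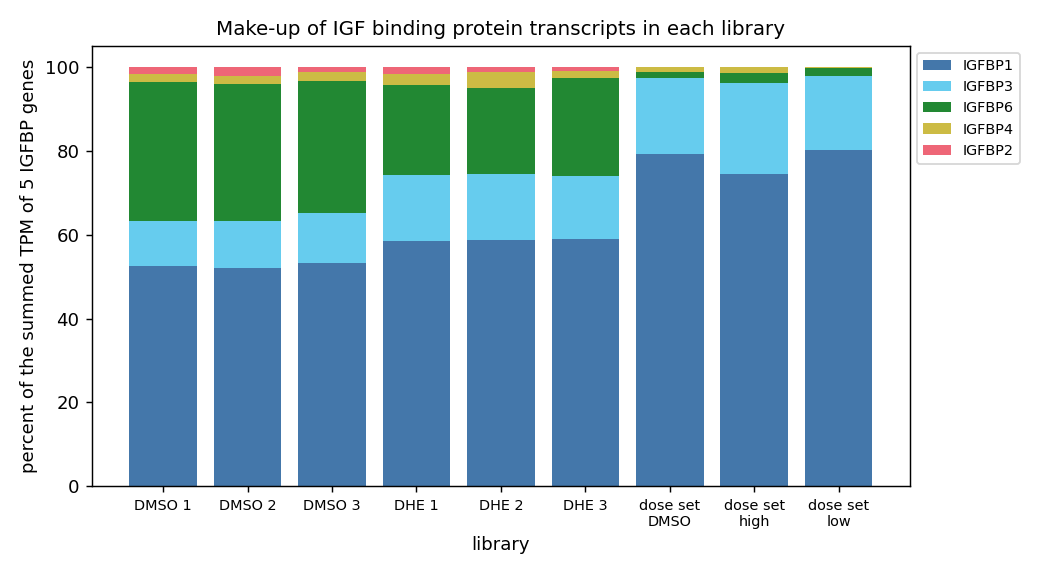
Share of each IGFBP gene in the summed TPM of the 5 IGFBP members, in percent, for each of the 9 libraries (stacked bars, each adding to 100). The IGFBP6 share is smaller in the DHE than in the DMSO replicates and under 3% in the dose set.

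In the dose set IGF2 was lower in both DHE libraries, and lowest at the dose labelled low, while IGFBP1 and IGFBP3 went opposite ways at the 2 doses. With 1 library a group, no test was made within the dose set, and intervals cover counting error only. IGF2 stood at 20868 CPM with DMSO, 14892 at high and 5831 at low. At high it was 1.40-fold lower (1.40 to 1.41, the exact binomial interval at 95%), and at low 3.58-fold lower (3.56 to 3.60). Its share of all counts was 1.99%, 1.49% and 0.611%. H19 stood at 102, 61.7 and 29.2 CPM, with log2 ratios of -0.73 and -1.80.

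IGFBP1 stood at 305 CPM with DMSO, 156 at high and 454 at low. That is 1.96-fold lower at high (1.88 to 2.03) and 1.49-fold higher at low (1.45 to 1.53). IGFBP3 followed the same order, at 118, 76.9 and 170 CPM, 1.53-fold lower at high (1.45 to 1.62) and 1.45-fold higher at low (1.38 to 1.52). Both are therefore highest in the library labelled low and lowest in that labelled high. IGFBP6 stood at 2.91, 2.67 and 5.25 CPM, from 75, 68 and 122 counts, 1.80-fold higher at low (1.34 to 2.44). IGFBP4 stood at 5.87, 4.08 and 2.50 CPM, 2.35-fold lower at low (1.72 to 3.24). IGFBP2 had 2, 1 and 3 counts, too few for a ratio.

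In TMM-scaled CPM the receptors and the adaptor stayed within 1.14-fold of the DMSO library. That bound did not hold in deposited TPM, where IRS2 stood at 44.1 with DMSO and 55.7 at low. IGF2R stood at 148 TPM with DMSO and 175 TPM at high. IGF1R stood at 78.0, 83.0 and 77.0 CPM, IGF2R at 809, 890 and 793 CPM, INSR at 228, 229 and 237 CPM and IRS2 at 184, 177 and 209 CPM. Scaling by library totals alone shifts all genes by a median of 0.07 (log2) at high and 0.13 at low, enough to turn the sign of IGF1R and IGF2R at low and of IRS2 at high. Of the 9 members with at least 20 counts in a dose set library, 2 were at least 2-fold lower at low, IGF2 and IGFBP4, where 6.6% of 13468 genes were. None was at least 2-fold lower at high (3.39% of genes) or higher at either dose (0.943% at high, 3.03% at low), though in deposited TPM IGFBP6 reached 2-fold at low. High and low share 1 control library, so an error in that library enters both ratios.

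**Figure D4:**
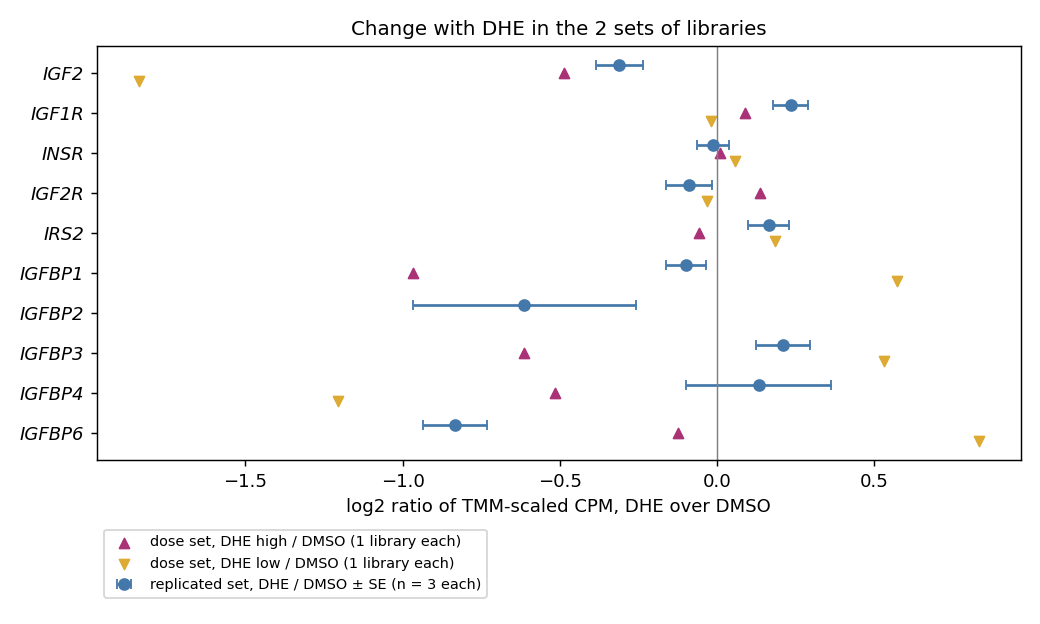
Log2 ratio of DHE over DMSO for each member: the replicated set with its SE (circles, n = 3 each) and the dose set at high and low (triangles, 1 library each, 9 members with enough counts). IGF2 lies below 0 in all 3, IGFBP1 and IGFBP3 lie on opposite sides at high and low, and the receptors lie near 0 in the dose set.

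The DHE effect was tested for a difference between the sets with the interaction of treatment and set in edgeR over all 9 libraries, with high and low in 1 group. None of the 10 members passed, where 2.09% of 15531 genes did, and 1 member, IGFBP6, had an unadjusted p under 0.05 (difference 1.26 ± 0.37, edgeR adjusted p = 0.111). The dose set control is 1 library, which is assumed to vary like the others. Taking high and low as 1 group averages changes that go opposite ways, as for IGFBP1 and IGFBP3. With high alone the edgeR fit called 2 members, IGFBP1 (-0.87 ± 0.12, adjusted p = 0.00188) and IGFBP3 (-0.83 ± 0.15, adjusted p = 0.00872), where 2.89% of genes were called. With low alone it called 3 members, IGF2 (-1.51 ± 0.15, edgeR adjusted p = 1.63e-05), IGFBP1 (0.69 ± 0.12, adjusted p = 0.00143) and IGFBP6 (1.70 ± 0.26, adjusted p = 7.11e-04), where 14.9% were called. In those single-library fits the spread comes from the replicated set only, so the p-values hold only if the dose set libraries vary as little, which these data cannot show.

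Levels of the binding proteins also differed between the DMSO libraries of the sets. IGFBP1 stood at 71.1 to 78.0 TPM in the DMSO replicates and at 354 TPM in the dose set control, and IGFBP3 at 14.5 to 17.7 and 80.6 TPM. IGFBP6 went the other way, at 45.1 to 47.5 and 6.67 TPM, as did IGFBP2, at 1.77 to 3.13 and 0.11 TPM. IGF2 stood at 3225 to 3836 and 7476 TPM. Set and any difference in culture or library preparation cannot be told apart.

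The genes most like IGF2 over all 9 libraries, by Pearson's r of log2 CPM among 10914 genes with a mean of at least 5 CPM, were SOX13 (r = 0.990), SORBS3 (0.986), OBSL1 (0.980), COG4 (0.979) and SLC43A3 (0.977). The 9 points share their sets, and IGF2 spans its widest range in the dose set. SLC43A3 stood there at 867, 557 and 311 CPM for DMSO, high and low. SOX13 stood at 56.1, 51.1 and 39.9 CPM.

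Around the members, 3 lists give the rest of the pathway in the replicated set. Of 23 tested partners in the IGF axis 5 rose and 4 fell (39.1% called, median log2 fold change 0.0083). Over all tested genes 26.2% were called, 13.4% higher and 12.8% lower. Of the 9 partners not tested IGF1 had at most 5 counts and INS and IGFBP5 had 0 in every library. IGFBP7, a related binding protein of low affinity for IGFs, rose 1.51-fold (edgeR adjusted p = 4.45e-06). Its means were 206 ± 5.30 CPM with DMSO and 312 ± 2.84 with DHE (SD, n = 3 per group). In the DMSO replicates it stood at 379 to 424 TPM and exceeded all IGFBP members. In the dose set control it stood at 39.2 TPM, below IGFBP1 at 354 and IGFBP3 at 80.6. Its dose set CPM was 21.0 with DMSO, 47.1 at high and 40.9 at low. IGF2BP3, which binds IGF2 mRNA, rose 1.33-fold and FURIN, a protease that matures IGF1R and INSR, 1.32-fold. SHC1, an adaptor, fell 1.18-fold and STC2, an inhibitor of a protease that cuts binding proteins, 1.15-fold. PAPPA and PAPPA2, proteases of this kind, had at most 4 and 3 counts in a library and were not tested. In the dose set SHC1 and STC2 went the other way, with log2 ratios of 0.24 and 0.43 for SHC1 and 0.14 and 0.87 for STC2 at high and low. IGF2BP3 was at 0.30 and 0.10 there and FURIN at 0.24 and -0.11. Over all 9 libraries, with high and low as 1 DHE group, SHC1 and STC2 were not called (edgeR adjusted p = 0.666 and 0.956). Without DMSO replicate 2, 2 partners fell and STC2 was not among them (edgeR adjusted p = 0.0573). Without DMSO replicate 3, DHE replicate 2 or DHE replicate 3, 3 partners rose.

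Of 38 tested genes of PI3K, AKT and mTORC1 signalling 9 rose and 4 fell (34.2% called, median 0.04), where 26.2% of all tested genes were called. DEPTOR, an inhibitor of mTOR, fell 1.53-fold, with means of 33.7 ± 2.16 and 22.1 ± 1.55 CPM (SD, n = 3 per group, edgeR adjusted p = 2.37e-04). SGK1, a kinase related to AKT, rose 2.18-fold from a low level of 4.15 CPM. Both went the other way in the dose set, where SGK1 stood at 3.03, 1.96 and 1.21 CPM (log2 ratios -0.61 at high and -1.27 at low) and DEPTOR at 22.7, 31.3 and 32.2 CPM (0.47 and 0.51). Over all 9 libraries neither was called (edgeR adjusted p = 0.203 for SGK1 and 0.240 for DEPTOR). GSK3B, a kinase that AKT inhibits, rose 1.25-fold, PPP2CA, a catalytic subunit of the phosphatase PP2A, 1.23-fold, and AKT1S1, a mTORC1 inhibitor, 1.19-fold, while RPS6KB2, an S6 kinase, fell 1.16-fold. In the dose set GSK3B, PPP2CA and AKT1S1 were higher in both DHE libraries (log2 ratios 0.18 to 0.55), and RPS6KB2 was at 0.05 and 0.14. AKT1, AKT2, FOXO1 and MTOR did not pass, at log2 fold changes of -0.06, -0.03, 0.05 and 0.06. Without DMSO replicate 3, 2 genes of this list fell.

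Of 22 tested genes known to be activated by FOXO factors or repressed by insulin, the class to which IGFBP1 and IRS2 belong, 8 fell and 2 rose. That is 45.5% called, where 12.8% of all genes fell and 13.4% rose, and the median log2 fold change of the list was -0.03. All 3 lists were chosen with earlier results of these data known, so their shares are not a test of the pathway. PDK4, a kinase that restrains pyruvate oxidation, fell 2.50-fold, with means of 6.08 ± 0.540 and 2.42 ± 0.453 CPM (SD, n = 3 per group, edgeR adjusted p = 2.16e-04). KLF9, a transcription factor named here after its value was seen, fell 2.11-fold from a low level of 3.85 CPM (edgeR adjusted p = 0.00379). ANGPTL4, a lipase inhibitor, fell 2.08-fold, GADD45A, a stress gene, 1.68-fold, CITED2, a competitor for HIF coactivators, 1.56-fold and TXNIP, a brake on glucose uptake, 1.20-fold. The 2 genes that rose were BCL2L11, a proapoptotic gene, at 1.26-fold, and CCNG2, also named after its value was seen, at 1.21-fold. In the dose set PDK4, KLF9, ANGPTL4, GADD45A, CITED2 and TXNIP were lower in both DHE libraries (log2 ratios -1.06 to -0.21). At high and low BCL2L11 was at 0.03 and -0.30 there, and CCNG2 at -0.0058 and 0.024. ANGPTL4 and CITED2 are also targets of hypoxia-inducible factors. PCK1 and G6PC, the gluconeogenic enzymes best known for insulin repression, had at most 3 counts in a library and were not tested.

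**Figure D5:**
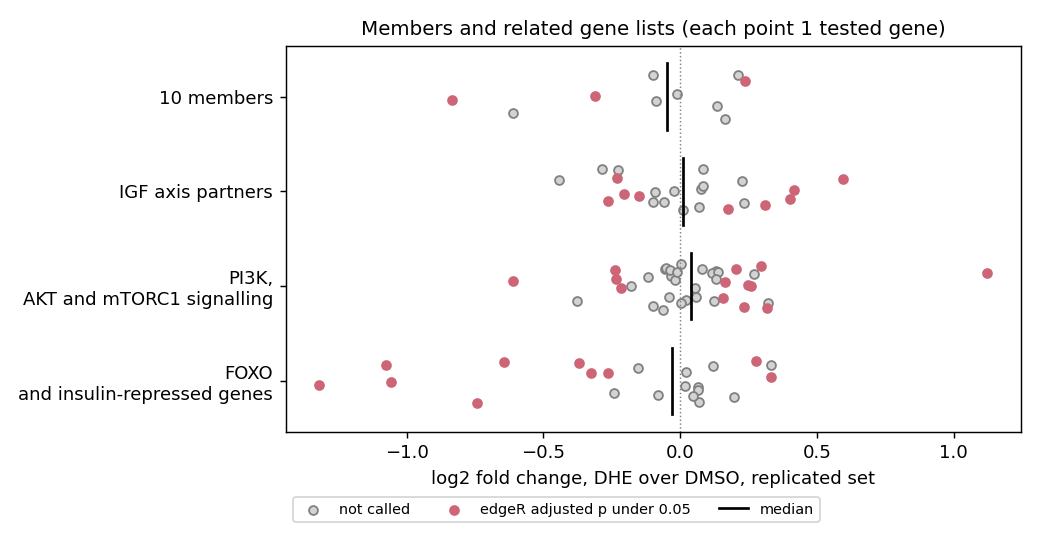
Log2 fold change of every tested gene of the members and the 3 related lists in the replicated set (red: edgeR adjusted p under 0.05, grey: not called, vertical bar: median). The medians lie between -0.05 and 0.04, with the widest falls among the FOXO and insulin-repressed genes.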

How the data were processed

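The labels' protocols name TRIzol extraction and an Illumina kit of the NEBNext Ultra series. For each of the 9 libraries the authors deposited gene values in RSEM's layout: an expected count, not normalized, and TPM, scaled for transcript length, per the file headers. The submitters' processing notes name GRCh38. Aligner, software versions and strand setting: not given in the sources used here. FPKM was not used.

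Expected counts were rounded to whole numbers. The replicated comparison used edgeR 4.0.16 under R 4.3.3 (TMM factors, default filter by group, two-sided quasi-likelihood F-test, Benjamini-Hochberg over all tested genes, threshold 0.05). Dose set log2 ratios use TMM-scaled CPM and a prior count of 2. Folds carry exact binomial intervals at 95%. Members matched RefSeq GRCh38.p14 by symbol and transcript accession. Alternatives used DESeq2 1.42.0, limma 3.58.1 (voom, log2(TPM + 1), log2(TPM + 0.1)), other factors and filters, each library left out, a replicate block and all 9 libraries. The fit of all 9 libraries took high and low as 1 DHE group, with the set as a covariate. Fits were tested on simulated data. Figures used matplotlib 3.10.9.

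Named genes are the 10 members, in each list the 6 tested genes with the smallest p, and the 5 genes most correlated with IGF2; others were named after their values were seen. Members and lists were chosen with earlier results of these data known.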

Additional observations from a re-analysis of the deposited data

Results flagged for a closer look

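For 4 members the interaction of treatment and set in edgeR passed when 1 dose library was taken at a time, a fit that called 2.89% of all genes with high and 14.9% with low. Each dose set arm is then 1 library, assumed to vary like the replicated set, so these fits do not measure the spread within the dose set. In log2 units, dose set minus replicated set, the differences were -0.87 for IGFBP1 and -0.83 for IGFBP3 with the library labelled high. With the library labelled low they were -1.51 for IGF2, 0.69 for IGFBP1 and 1.70 for IGFBP6. With both dose libraries in 1 fit none of these genes passed, at adjusted p-values of 0.451 for IGF2, 0.958 for IGFBP1, 0.882 for IGFBP3 and 0.111 for IGFBP6. The joint fit averaged high and low, which lay on opposite sides of DMSO for IGFBP1 and IGFBP3. It therefore could not show a difference at either dose alone for these 2 genes. All of these fits share 1 control library, and no cause was tested.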

How the results depend on the processing

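Among the members, 1 was called higher and 2 lower. Without 1 library at a time, the counts were 1 to 2 higher and 2 lower. Limma on log2(TPM + 1) and on log2(TPM + 0.1) gave 0 higher and 1 lower, IGFBP6, and all 9 libraries with the set as a covariate gave 0 and 0. That last fit took high and low as 1 DHE group, so any difference between the 2 doses counted as spread between libraries. IGF2 was at -0.53 there (edgeR adjusted p = 0.117), IGFBP6 at -0.55 (0.110) and IGF1R at 0.17 (0.0571). DESeq2, limma-voom, the other factors and the other filters kept IGF2, IGFBP6 and IGF1R called. The replicate block gave 2 higher, with IRS2 added (0.16, adjusted p = 0.0338), as did leaving out both libraries numbered 1, a setting chosen after seeing the data (2 higher). Same-numbered libraries correlated at 0.085, 0.052 and -0.048 in their deviations from the group means, and 3 of 6 correlated best with their own number. With 3 libraries a group, these values cannot decide whether the numbers pair the libraries. Over all genes the replicate block called 2250 higher and 2186 lower, against 1945 and 1858 without it.

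Over all genes 1945 rose and 1858 fell, 497 and 448 on log2(TPM + 1), 486 and 436 on log2(TPM + 0.1), and 1329 to 2032 and 1242 to 1948 without 1 library. IGF axis partners gave 3 higher and 0 lower on both TPM scales and over 9 libraries, and 3 to 5 and 2 to 4 without 1 library. PI3K genes gave 1 and 1 on both TPM scales, 0 lower over 9 libraries, and 6 to 10 and 2 to 4 without 1 library. FOXO and insulin-repressed genes gave 0 higher on both TPM scales with 5 and 4 lower, 1 higher over 9 libraries, and 2 and 6 to 8 without 1 library. At low, 1 member was at least 2-fold higher in deposited TPM. The difference between sets called 2 members with high alone (2.89% of all genes) and 3 with low alone (14.9%), against 0 with both (2.09%).

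Signs turned, with no call under either setting, for IGFBP4 (-0.11 without DHE replicate 2 and up to 0.37 without another library, -0.17 over 9 libraries), for INSR (0.017 on both TPM scales, 0.014 without DMSO replicate 2, 0.019 without DHE replicate 1 and down to -0.029 without another library, 2.86e-04 over 9 libraries, 0.0097 without both libraries numbered 1). STC2, called lower, turned to 0.016 over 9 libraries and was not called there. For the difference between sets they turned for IGFBP1 (-0.87, called) and IGFBP2 (-0.32) with high alone and for IGFBP3 (0.34) and IRS2 (0.034) with low alone. The cause was not tested. IGFBP2 had at most 75 counts in a library and IGFBP4 at most 156. How much of their error comes from depth was not tested.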
